A study of Mus musculus with 27 samples.

Results

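Retinoic acid (RA), the acidic derivative of vitamin A, acts on cells through nuclear receptors that work in pairs. A retinoic acid receptor (RAR; Rara, Rarb, Rarg) binds RA, and a retinoid X receptor (RXR; Rxra, Rxrb, Rxrg) is its partner on DNA and also the partner of thyroid hormone, vitamin D, PPAR and liver X receptors. RAR-RXR pairs sit on direct repeats of a short half-site, hold corepressors without ligand and exchange them for coactivators when RA is bound, and Rarb is itself a known RA target gene. In the embryo RA made in mesoderm patterns the trunk and acts on the urogenital ridge, from which gonads and kidneys form. All 6 genes of these subfamilies are described here. They were matched by symbol to the gene identifiers of the deposited expression tables, and each was found once, 6 of 48795 genes listed.

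The libraries followed mouse embryonic stem cells (ESC) on their way to gonadal progenitors, with 9 groups of 3 bulk RNA-seq libraries, 27 in all. Every group came from 1 clone, clone 7, of XY Tesco-CFP; R26-rtTA cells of the strain F1:C57BL/6 x CBA, so that a fluorescent reporter driven by the Sertoli cell enhancer TESCO and the doxycycline transactivator were present throughout, controls included. ESC were kept in 2i/LIF. EpiSC (epiblast-like cells) were ESC held for 2.5 days in a medium made without vitamin A, with 20 ng/ml Activin A and 12 ng/ml bFGF. M (early mesoderm) had a further 36 hours with 20 ng/ml bFGF, 10 ng/ml BMP4 and 10 μM of the PI3 kinase inhibitor LY294002. The 5 intermediate mesoderm media (IM1 to IM5, 3.5 days) shared 5 ng/ml bFGF and 20 ng/ml BMP. IM1 had no RA and IM3 had 100 nM RA. IM2 had RA and 10 ng/ml Activin A, IM4 had RA and 0.3 μM CHIR99021 (CHIR, a GSK3 inhibitor that activates Wnt signalling), and IM5 had all 3 additions. The iSLC (induced Sertoli-like cells) were IM3 cells that carried doxycycline-inducible lentiviral Nr5a1 and Dmrt1 and were sorted for the reporter 4 days after doxycycline, in a Sertoli medium for which no RA is listed. The study's methods list B27, Activin A, EGF, FSH, FGF9, a prostaglandin and testosterone for the Sertoli medium. The EpiSC medium is named as without vitamin A, and the B27 of the Sertoli medium is not. The sort, the viral factors and the change of medium are thus part of the iSLC group. All libraries of a group share the clone, so that p-values measure the spread between cultures of 1 clone.

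Totals ran from 35923040 to 84876603 expected counts per library. Levels are given as TPM, a share of all transcripts after division by transcript length. Defining markers were present for most labels, with Nanog at 345 to 368 TPM in ESC, Fgf5 at 117 to 121 in EpiSC, T at 463 to 529 in M and the gonadal ridge gene Wt1 at 137.8 to 165.1 in IM3, but not for all. Of the other gonadal ridge genes listed, Gata4 was at 336 to 342 TPM and Lhx9 at 1.46 to 2.31 in IM3. The kidney and intermediate mesoderm gene Pax2 reached at most 0.37 TPM in any group. Osr1 of the same list was at 3.07 to 3.94 in IM1 and 0.80 to 1.44 in IM3, and Lhx1 at 0.44 to 0.45 in IM3. In iSLC the Sertoli hormone gene Amh was at 0.47 to 0.61 TPM, Cst9 at 1.13 to 1.69 and Dhh at 1.53 to 2.38. Sox9 was at 23.3 to 26.5 TPM there, below the 34.5 to 45.5 of IM3, and Sox8 at 6.23 to 7.42. The libraries also fell into 2 sets by features that the labels do not name. In ESC, M, IM3 and IM4 (12 libraries) red blood cell genes summed to 3.9 to 27.1 CPM (counts scaled to library size), against 0.38 to 1.39 in the other 15, and the GC trend, the median deviation of GC-rich genes less that of GC-poor genes (the upper and lower quartiles), was mostly lower there, from -0.385 to -0.068 against -0.079 to 0.453 on the log2 scale. The receptor genes are GC-rich (53.2 to 60% of exonic bases), with Rara, Rarg, Rxra and Rxrb between the 89.7 and 95.3 percentiles of tested genes. Under-2-fold differences of the receptor genes between the sets are therefore given with an offset for GC as well.

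The genes lie on 6 chromosomes (GRCm38, GENCODE M21 positions). Rara is at chr11:98927818-98974942 on the plus strand. Rarb, at chr14:16430839-16819156 on the minus strand, is the longest locus. Rarg is at chr15:102234938-102257517 on the minus strand. The RXR genes Rxra (chr2:27676440-27762957), Rxrb (chr17:34031812-34038399) and Rxrg (chr1:167598384-167639623) are on the plus strand. The tables list 7 transcripts for Rara, 6 for Rarg and Rxra, 10 for Rxrb, 4 for Rxrg and 1 for Rarb. For Rarb, 57.7% of the transcript (3108 bases in GENCODE M21, 3034 in the authors' annotation) overlaps exons of Top2b, a topoisomerase gene on the other strand, and no source used here says if reads were counted by strand. Top2b was at 61.6 to 76.4 TPM in M, where Rarb was listed at 0.22 to 0.35 TPM, and at 25.4 to 26.4 TPM in EpiSC, where Rarb was at 0.07 to 0.11. The exons of the other 5 genes share no base with another gene.

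The promoter of Rarb is shown because Rarb was the member that moved most with RA and the only one whose promoter window held a direct repeat. The window is 300 bases from RefSeq (GRCm38.p6, chr14:16575427-16575726, minus strand, 250 bases before and 50 after the annotated start), with the half-sites in capitals.

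Rarb: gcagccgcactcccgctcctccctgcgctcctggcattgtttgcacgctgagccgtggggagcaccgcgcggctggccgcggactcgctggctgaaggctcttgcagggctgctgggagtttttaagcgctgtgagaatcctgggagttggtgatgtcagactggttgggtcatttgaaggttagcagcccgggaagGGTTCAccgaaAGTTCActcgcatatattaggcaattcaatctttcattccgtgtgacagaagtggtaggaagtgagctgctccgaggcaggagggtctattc

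The half-site AGGTCA was searched together with its variant GGGTCA, and with the form AGTTCA together with its variant GGTTCA, in any combination as direct repeats spaced by 1, 2 or 5 bases, on both strands and with overlaps allowed. In Rarb the repeat is spaced by 5 bases and begins 53 bases before the RefSeq start. The start of its transcript in GENCODE M21, position 16575543 of chromosome 14, lies upstream of the RefSeq start. A repeat spaced by 5 bases was found in 0.0974% of all 32851 windows, one spaced by 1 in 0.222% and one spaced by 2 in 0.268%. None of the other 12 windows of the 6 genes held one, which says only that these letters are not in those windows. Of the 13 RA target genes listed for comparison, 7 had a window, and Cyp26a1, the RA-degrading enzyme gene, held a repeat of the same spacing on its other strand.

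Cyp26a1: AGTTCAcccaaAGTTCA

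The central comparison was RA itself, IM3 against IM1, which differ only in 100 nM RA. A gene was called differentially expressed (DE) with an adjusted p of at most 0.01 (edgeR quasi-likelihood test, Benjamini-Hochberg over 20839 genes), at least a 2-fold difference, and 100 or more normalized counts on average. By that rule 1 of the 6 receptor genes was DE, where 6.34% of all genes tested were. It was Rarb. In bulk cultures, fewer cells of a type and less RNA per cell cannot be told apart.

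Rarb stood at 1.16, 0.73 and 0.64 TPM in the 3 IM1 libraries and at 44.2, 47.1 and 47.9 TPM in IM3. The groups were far apart, with every IM3 library above every IM1 library. On counts the difference was a log2 fold change of 5.71 (SE 0.19, adjusted p = 2.45e-18), a 52.2-fold rise. It lay between 4.69 and 5.98 in every alternative run for this comparison, the largest adjusted p being 5.69e-10. IM3 and IM1 lie in different library sets by GC trend and red blood cell genes. IM2 and IM5, which are in the same set as IM1 but also held Activin A, averaged 4.83 above IM1 (SE 0.18, adjusted p = 6.03e-17). Top2b, which shares exonic bases with Rarb, differed by 0.35 between IM3 and IM1.

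Rarg, the main RAR gene of pluripotent cells and early trunk, went the other way. It was at 60.2, 57.8 and 54.6 TPM in IM1 and at 32.7, 31.3 and 30.0 TPM in IM3, without overlap. The log2 fold change was -0.96 (SE 0.07, adjusted p = 9.51e-12), a 1.95-fold fall that missed the fold minimum of 2. Its value was -0.72 with the GC offset and -0.66 for IM2 and IM5 against IM1, each past the adjusted p limit. Leaving out the third IM1 library brought it past the fold minimum.

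Rara, the broadly expressed RAR gene, was at 43.5, 47.4 and 43.0 TPM in IM1 and at 52.3, 55.2 and 47.7 TPM in IM3. The IM3 libraries were all above those of IM1 in TPM, but on normalized counts the groups overlapped and the log2 fold change was 0.12 (95% interval -0.03 to 0.27, adjusted p = 0.183). With the GC offset it was 0.43 (adjusted p = 6.68e-10), so that passing the adjusted p limit depended on this correction. Rara was not DE with or without it.

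Of the RXR genes, Rxra, the RXR gene most needed in the embryo, was at 19.7, 20.2 and 18.6 TPM in IM1 and at 23.5, 25.03 and 20.5 in IM3. Its log2 fold change was 0.16 (adjusted p = 0.0549), or 0.41 with the GC offset (adjusted p = 8.47e-08). Leaving out single libraries gave 0.08 to 0.23. Whether Rxra passed the adjusted p limit thus depended on the setting, and it stayed under the fold minimum. For IM2 and IM5 against IM1 it was -0.26 (adjusted p = 0.000611), but these media also held Activin A, so that value is not one of RA alone. Rxrb, expressed in most tissues, was at 39.3, 39.9 and 36.5 TPM in IM1 and at 35.4, 38.3 and 34.7 in IM3. These TPM values overlapped, while normalized counts did not. Its log2 fold change was -0.20 (adjusted p = 0.0176) and turned to 0.14 (adjusted p = 0.00749) with the GC offset.

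Rxrg, the RXR gene of muscle and brain, was scarce in both media. It was at 0.29, 0.25 and 0.27 TPM in IM1 and at 0.73, 0.78 and 1.03 TPM in IM3. All IM3 libraries were above all IM1 libraries, and the log2 fold change was 1.60 (SE 0.26, adjusted p = 1.1e-05), but neither group reached the count minimum of 100, so Rxrg was not DE. In IM2 and IM5 against IM1 it was 1.53 (adjusted p = 4.16e-06).

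**Figure D1:**
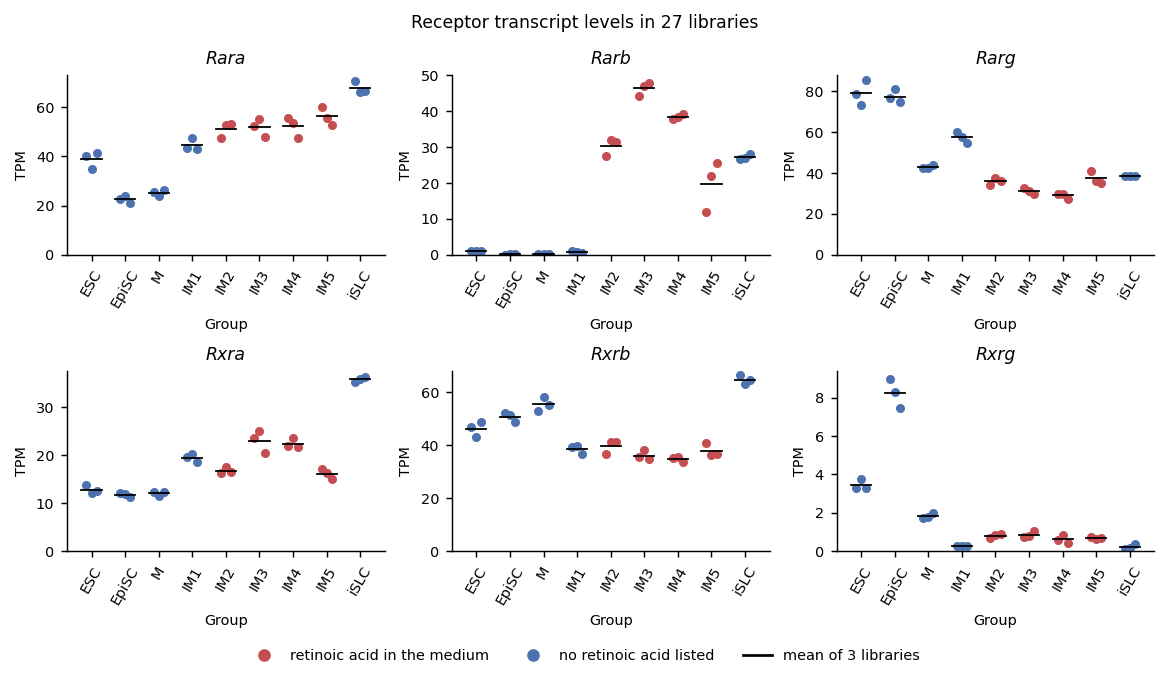
Levels of the 6 receptor genes in TPM (linear axes from 0) in each of the 27 libraries, 3 points a group, with the group mean as a bar and the 4 media with RA in red. Rarb is at or below 1.16 TPM in every library before RA and at 11.9 to 47.9 TPM in the 4 media with RA, Rarg is lowest in IM3 and IM4, and Rxrg is highest in EpiSC.

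Taken over all 4 media with RA (IM2 to IM5) against IM1, 1 of the 6 genes was DE, again Rarb, against 3.8% of all genes. Rarb was higher by 5.21 (SE 0.18, adjusted p = 2.78e-18). Rarg was lower as well, with a log2 fold change of -0.83 (SE 0.05, adjusted p = 3.53e-13), and its 12 libraries with RA, at 27.4 to 41.2 TPM, all lay below the 3 without, at 54.6 to 60.2. Rxrg was higher by 1.48 (SE 0.21, adjusted p = 1.8e-06), under the count minimum. Rara was higher by 0.20 (adjusted p = 0.00688), or by 0.34 with the GC offset (adjusted p = 6.75e-10), and Rarg was at -0.71 with it. The normalized counts of Rara overlapped between the 2 sides. It missed the adjusted p limit with an offset for effective length (0.0126) and with only the groups compared (0.0225). It also missed it on leaving out some single libraries (up to 0.0759). IM1 is the shared control of this comparison and of IM3 against IM1.

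The make-up of the RAR pool differed with the medium. The levels of Rara, Rarb and Rarg summed to 103 ± 4.19 TPM in IM1 and 129 ± 4.07 TPM in IM3 (SD, n = 3). Rarb gave 0.816% ± 0.252 of that sum in IM1 and 35.8% ± 2.05 in IM3, while the share of Rarg was 55.8% ± 1.42 in IM1 and 24.2% ± 0.993 in IM3. Rara held 43.3% ± 1.66 and 39.9% ± 1.74. These shares are descriptions, with no test and no GC correction, of groups in different library sets. The share of Rarb in IM3 was 38.5% from counts not corrected for length.

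**Figure D2:**
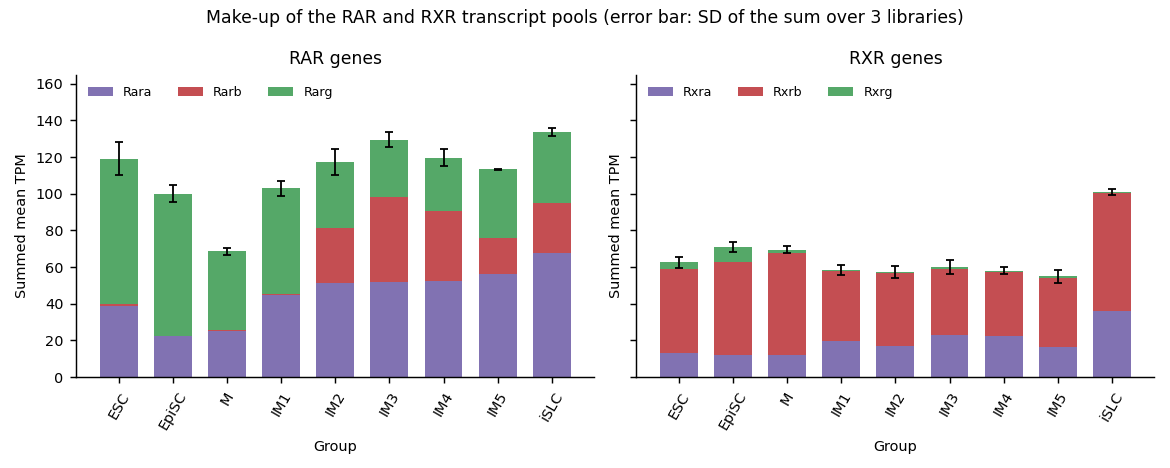
Mean TPM of the RAR genes (left) and RXR genes (right), stacked by gene for each group, with the SD of the summed TPM over 3 libraries as the error bar. Rarb is a visible part of the RAR pool in IM2 to IM5 and iSLC only, and the RXR pool is mostly Rxrb in every group.

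Activin A was compared with and without CHIR. In IM2 against IM3, 0 of 6 receptor genes were DE (3.8% of all genes were), 3 of the 6 passed the adjusted p limit without the fold of 2, and 4 had an unadjusted p under 0.05. DESeq2 called 0 as well. Rarb was at 27.5, 31.99 and 31.5 TPM in IM2, below the 44.2 to 47.9 of IM3, with a log2 fold change of -0.59 (SE 0.14, adjusted p = 0.00151). It missed the limit with the DESeq2 Wald test (adjusted p = 0.0121), with limma on log2(TPM + 0.1) (0.0205) and without the first IM2 library (0.0117). Rxra was at 16.3, 17.5 and 16.5 TPM, below the 20.5 to 25.03 of IM3, with -0.43 (adjusted p = 1.02e-05). Rarg was at 34.0, 37.6 and 36.0 TPM, above the 30.0 to 32.7 of IM3, with 0.23 (adjusted p = 0.00963). It no longer passed the adjusted p limit with the GC offset (0.04, adjusted p = 0.6).

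In IM5 against IM4, where CHIR was present, 0 of 6 receptor genes were DE, against 4.09% of all genes, by edgeR and by DESeq2, and 4 passed the adjusted p limit, the same number as had an unadjusted p under 0.05. Rarb was at 11.9, 21.9 and 25.5 TPM in IM5 and at 37.8, 38.3 and 39.2 TPM in IM4, a log2 fold change of -0.93 (SE 0.14, adjusted p = 6.34e-06). The first IM5 library stood below the other 2, and without it the value was -0.68 (adjusted p = 3.9e-06). Without the third library it was -1.14, which made Rarb DE. The first library also had the steepest GC trend of that group, 0.424 against 0.168 and 0.124, whose part in the result was not tested. Rxra was at 17.1, 16.3 and 15.0 TPM in IM5 and at 21.9, 23.6 and 21.8 in IM4, with a log2 fold change of -0.38 (adjusted p = 3.94e-05).

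Both Activin comparisons cross the library sets named above, and the smaller differences moved with the GC offset. Rarg in IM5 against IM4 was at 0.44 (adjusted p = 8.99e-06) and at 0.16 with it (adjusted p = 0.00718). Rxrb was at 0.24 (adjusted p = 0.00568) and at -0.16 with it (adjusted p = 0.0049). Rara was at 0.15 (adjusted p = 0.103) and at -0.21 with it (adjusted p = 7.8e-05), and in IM2 against IM3 it turned from 0.03 to -0.23 (adjusted p = 2.06e-05). Rarb and Rxra kept their direction and stayed past the adjusted p limit with the offset, at -0.97 and -0.69 in IM5 against IM4 and at -0.63 and -0.65 in IM2 against IM3.

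CHIR was compared within the library sets. In IM4 against IM3, 0 of 6 receptor genes were DE, where 0.101% of all genes were, by edgeR and by DESeq2, and 0 had an unadjusted p under 0.05. Rarb was at 37.8 to 39.2 TPM in IM4 and at 44.2 to 47.9 in IM3, groups that did not overlap, with a log2 fold change of -0.23 (95% interval -0.52 to 0.06, adjusted p = 0.562). In IM5 against IM2, 0 of 6 were DE against 0.235% of all genes, by edgeR and by DESeq2, and 2 had an unadjusted p under 0.05. Rarb was lower by a log2 fold change of -0.58 (SE 0.14), just outside the limit with an adjusted p of 0.0105, and just inside it with the GC offset (0.00893). Without the first IM5 library it was -0.34 (adjusted p = 0.0436), and without the third -0.80 (adjusted p = 0.000568). The test of whether Activin A acted differently with CHIR gave 0 of 6 DE genes (0.0336% of all genes) by edgeR and by DESeq2. Only Rarg had an unadjusted p under 0.05 (0.0436, adjusted 0.46). For Rarb the test gave a difference of -0.34 between the 2 effects (95% interval -0.75 to 0.07, adjusted p = 0.563). Without the first IM5 library it was -0.09 (adjusted p = 0.951) and without the third -0.55 (adjusted p = 0.206).

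**Figure D3:**
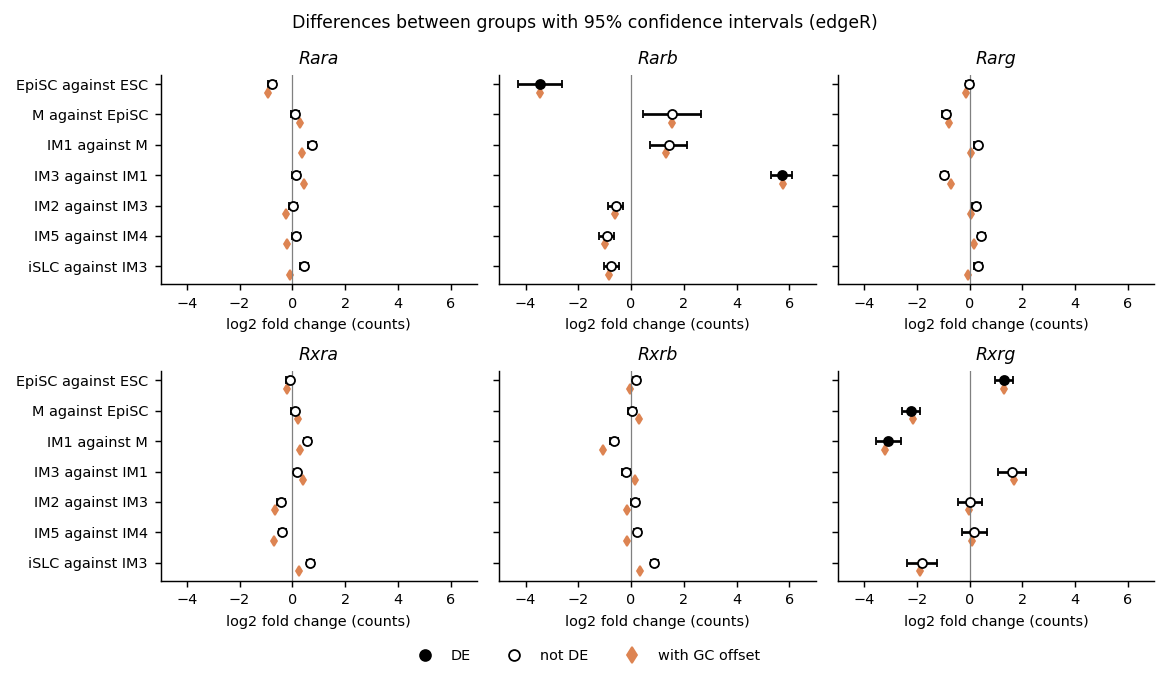
Log2 fold changes of the 6 genes in 7 comparisons (edgeR on counts; bars are 95% confidence intervals; filled circles are DE, open circles are not) with the value under the GC offset as diamonds. The 5.71 of Rarb in IM3 against IM1 and the differences of Rxrg between the early groups are far from 0 with and without the offset, while most values of Rara, Rarg, Rxra and Rxrb lie within 1 of 0.

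Before RA was added, the receptor genes also differed between groups. In EpiSC against ESC, 2 of 6 were DE, against 8.07% of all genes. Rarb was at 1.15, 1.05 and 1.01 TPM in ESC and at 0.07, 0.11 and 0.10 in EpiSC, where the libraries held 9 to 14 expected counts. The groups did not overlap, and the log2 fold change was -3.45 (SE 0.40, adjusted p = 4.16e-08). The EpiSC medium was the one that the methods name as without vitamin A, though none is listed for the M and IM media either. It also held knockout serum replacement, and whether either bears on Rarb was not tested. Rxrg was at 3.30, 3.76 and 3.29 TPM in ESC and at 8.95, 8.28 and 7.45 in EpiSC, its highest group, a rise of 1.31 on the log2 scale (SE 0.17, adjusted p = 1.53e-07). Rara fell from 35.0 to 41.3 TPM in ESC to 20.9 to 24.0 in EpiSC, by -0.76 (adjusted p = 2.18e-09), under the fold minimum. ESC and EpiSC lie in different library sets, and with the GC offset Rara was at -0.94 and Rxra passed the limit, at -0.22 (adjusted p = 0.000482; 0.185 without the offset).

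In M against EpiSC, 1 of 6 genes was DE, against 14.5% of all genes. Rxrg fell from its EpiSC level to 1.73, 1.77 and 2.00 TPM, a log2 fold change of -2.22 (SE 0.17, adjusted p = 1.05e-11). Rarg was at 76.5, 80.9 and 74.8 TPM in EpiSC and at 42.7, 42.5 and 44.2 in M, without overlap, with -0.90 (SE 0.07, adjusted p = 6.27e-12), short of the fold of 2. Rarb was at 0.22, 0.35 and 0.30 TPM in M and its difference from EpiSC, 1.55, had an adjusted p of 0.0121. It rested on 22 to 34 expected counts per library in M and 9 to 14 in EpiSC. Top2b, which shares exonic bases with Rarb, rose by 1.37 between the same groups (adjusted p = 7.87e-16), and its part in the Rarb counts was not tested. These groups are again in different library sets. With the GC offset Rarg was at -0.76, and 3 genes passed the limit that did not without it, namely Rara at 0.29 (adjusted p = 3.62e-07), Rxra at 0.21 (adjusted p = 0.000525) and Rxrb at 0.29 (adjusted p = 9.31e-07).

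In IM1 against M, the step to intermediate mesoderm medium without RA, 1 of 6 was DE, against 15.7% of all genes. Rxrg dropped from 1.73 to 2.00 TPM to 0.25 to 0.29 TPM, a log2 fold change of -3.08 (SE 0.23, adjusted p = 3.57e-12). Without RA, Rarb reached no more than 1.16 TPM, 1.42 above M on the log2 scale (SE 0.34, adjusted p = 0.000576), under the count minimum. The other 4 genes passed the adjusted p limit under a fold of 2, with Rara at 0.73, Rxra at 0.56 and Rarg at 0.31, and Rxrb at -0.64. IM1 and M lie in different library sets. With the GC offset Rara was at 0.37 (adjusted p = 4.73e-09) and Rxra at 0.27 (adjusted p = 3.18e-05), Rxrb was at -1.05 and became DE, and Rarg was at 0.06 (adjusted p = 0.279).

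In IM3 against M, which lie in the same library set, 2 of 6 were DE, against 14.9% of all genes. Rarb was higher by 7.13 (SE 0.23, adjusted p = 9.49e-20). Rxrg was lower, at -1.48 (SE 0.21, adjusted p = 6.5e-07). The others passed the adjusted p limit alone, with Rara at 0.85, Rxra at 0.72, Rarg at -0.65 and Rxrb at -0.84, and the GC offset left all 4 in the same direction and past the limit.

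In the sorted iSLC against IM3, 0 of 6 receptor genes were DE, where 19.2% of all genes were, by edgeR and by DESeq2, and all 6 passed the adjusted p limit. The 2 groups lie in different library sets. No RA is listed for the Sertoli medium, but its B27 is not named as free of vitamin A and it held Activin A. Their part in these values was not tested. Rarb was at 26.6, 27.03 and 28.2 TPM, below every IM3 library (-0.75, SE 0.14, adjusted p = 3.43e-05) and above every IM1 library. Rxrb was at 66.5, 63.0 and 64.8 TPM, the highest TPM of any group, against 34.7 to 38.3 in IM3 (0.89, SE 0.07, adjusted p = 8.07e-12). With the GC offset Rxrb in iSLC was 0.34 above IM3, while IM3 was 0.91 below M, so its rank above M did not hold. Rxra was at 35.3, 35.8 and 36.3 TPM, also its highest group, against 20.5 to 25.03 in IM3 (0.68, adjusted p = 7.08e-10).

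Rxrg was near its lowest level in iSLC, with 0.14, 0.17 and 0.37 TPM, and differed from IM3 by -1.80 (adjusted p = 1.72e-06) under the count minimum. Rara was at 70.7, 66.1 and 66.5 TPM, above the 47.7 to 55.2 of IM3 (0.42, adjusted p = 1.21e-05). Rarg was at 38.8, 38.6 and 38.7 TPM, above the 30.0 to 32.7 of IM3 (0.32, adjusted p = 0.000247). With the GC offset Rara was at -0.08 (adjusted p = 0.0701) and Rarg at -0.06 (adjusted p = 0.3), so neither passed the adjusted p limit with it. Rxrb and Rxra remained higher, at 0.34 (adjusted p = 7.55e-08) and 0.25 (adjusted p = 5.69e-05), and Rarb lower, at -0.83. The RXR sum was 101 ± 1.59 TPM in iSLC and 60.0 ± 3.98 TPM in IM3 (SD, n = 3), and the ratio of the RAR to the RXR sum was 1.33 ± 0.0116 in iSLC and 2.16 ± 0.0752 in IM3, against 0.988 ± 0.0472 in M, where it was lowest. The sum and the ratio carry no GC correction, and the offset made the differences of Rxrb and Rxra between iSLC and IM3 smaller.

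Over all 9 groups at once, all 6 genes varied (adjusted p under 0.05), as did 96.4% of genes. Ordered by mean TPM, Rarb ran IM3, IM4, IM2, iSLC, IM5, ESC, IM1, M and EpiSC, and the libraries of neighbours overlapped only between IM2 and iSLC and between ESC and IM1. Rarg ran from ESC at 79.1 TPM and EpiSC at 77.4, which overlapped, through IM1 and M to IM4 at 29.0. Rara had its highest TPM in iSLC and its lowest in EpiSC and M, which overlapped, and IM2 to IM5 could not be ordered. TPM carries no GC correction, and with the GC offset Rara in iSLC was not above IM3 (-0.08, adjusted p = 0.0701). Rxra was lowest in ESC, M and EpiSC, which overlapped, at 11.4 to 13.8 TPM. Rxrb was at 33.8 to 41.4 TPM in IM1 to IM5, in one overlapping run.

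Per length, the leading receptor gene changed along the way. Rarg was the highest of the 6 in ESC and EpiSC, at 79.1 and 77.4 TPM, and in IM1 at 57.5. Rxrb led in M at 55.6 TPM, with Rarg at 43.1. In IM2 to IM5 and iSLC Rara had the highest mean, 51.2 to 67.8 TPM, though its libraries overlapped those of Rarb in IM3 and those of Rxrb in iSLC. Among the RXR genes Rxrb held 60.2% to 79.9% of the summed TPM in every group, and Rxrg its largest share, 11.6% ± 0.637, in EpiSC (SD, n = 3).

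The mean length of the transcripts used was a further readout, taken from the deposited tables, and it moves when the mix of transcripts does. It was tested with limma over 10328 genes, and could not be tested for Rarb, which has 1 listed transcript, of 3034 bases in the deposited tables. In M against EpiSC, 1 of the 5 other genes changed, against 11.1% of genes. The mean length of Rxra was 4464, 4629 and 4443 bases in EpiSC and 4867, 4747 and 4905 in M, 7.27% longer (adjusted p = 0.000293). In IM1 against M, 1 of 5 changed, against 10.5%. Rxrg was at 2110, 2110 and 2093 bases in M and at 1781, 1980 and 1705 in IM1, 13.6% shorter (a change of -13.6%, adjusted p = 0.00416). That call rested on 18 to 23 expected counts per IM1 library and was lost on leaving out 5 of the 6 libraries in turn, at adjusted p from 0.0129 to 0.0344. In every other comparison none of the 5 genes was called. Among these were IM3 against IM1 (4.71% of genes called) and iSLC against IM3 (16.9%). Both comparisons with a call cross the library sets, and lengths were not corrected for GC.

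The other genes of the pathway were read from lists. Of 13 listed RA target genes, 6 were DE and higher in IM3 than in IM1 and none was DE and lower, where 2.62% of all genes were DE and higher and 3.72% DE and lower. The median log2 fold change of the 13 was 1.36, against 0 over all tested genes. Hoxa4, a homeobox gene of the hindbrain and trunk, was at 0.29, 0.37 and 0.38 TPM in IM1 and at 12.0, 15.3 and 12.8 in IM3 (5.14, adjusted p = 2.72e-16). Dhrs3, which returns retinaldehyde to retinol, was at 5.2, 5.32 and 4.29 TPM and at 32.4, 39.8 and 34.5 (2.79, adjusted p = 3.17e-14). In both the IM3 libraries lay above the IM1 libraries.

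The target genes did not share one order over the RA media. Rarb, Hoxa4 and Dhrs3 had their highest RA-medium levels in IM3, while Cyp26a1 was at 22.1 to 23.2 TPM in IM3, 31.4 to 37.0 in IM4, 45.1 to 54.8 in IM2 and 29.2 to 54.6 in IM5. In IM5 the first library was lowest for Rarb, Hoxa4, Dhrs3 and Cyp26a1 alike. In iSLC, 4 targets were DE and higher than in IM3 and 3 DE and lower, where 10.3% and 8.92% of all genes were, and the median was -0.85. Dhrs3 was higher by 2.26 and Stra6, the retinol uptake receptor gene, by 2.15. Cyp26a1 was lower, at -3.499, as was Crabp2, a cellular RA-binding protein gene, at -3.03 (adjusted p at most 7.56e-13 for each of the 4).

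**Figure D4:**
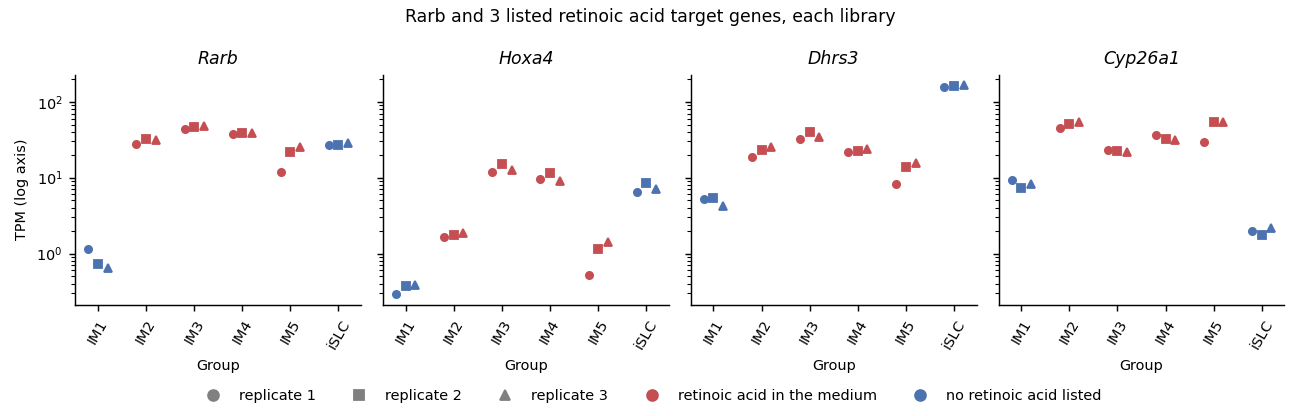
TPM on a log axis of Rarb and 3 listed RA target genes in each library of IM1 to IM5 and iSLC, with the replicate number as the symbol. All 4 genes are lower in the 3 IM1 libraries than in any IM3 library, and in iSLC Rarb, at 26.6 to 28.2 TPM, and Dhrs3 are high while Cyp26a1 is at 1.73 to 2.14.

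Genes that make RA were few and mixed. Of 4 listed, Aldh1a1, a retinaldehyde dehydrogenase gene, was DE and higher in IM3 than in IM1 (3.504, adjusted p = 3.72e-10) at a low 1.59 to 2.60 TPM. Aldh1a3 (-3.94, adjusted p = 6.6e-16) and the retinol dehydrogenase gene Rdh10 (-1.23, adjusted p = 7.77e-12) were DE and lower. Of all genes tested, 2.62% were DE and higher and 3.72% DE and lower. Over IM2 to IM5 against IM1, Aldh1a1 (2.29), Aldh1a3 (-3.10) and Aldh1a2 (-1.22; 0.68 in IM3 against IM1) were DE, where 3.8% of all genes were. Rdh10, at -0.76, was under the fold minimum. In iSLC, Aldh1a1 was at 114, 90.6 and 100.1 TPM, 5.60 above IM3 on the log2 scale (adjusted p = 7.1e-20), and Aldh1a3 was 4.15 above it.

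Genes for the proteins that the receptors recruit were read in the same way. Of 9 listed corepressor genes and of 9 coactivator genes, 0 were DE in IM3 against IM1 in either direction (edgeR). Of all genes tested 6.34% were, so that 0 of 9 is near that share. The median log2 fold changes of the 2 lists were 0.11 and 0.17. The adjusted p limit alone was passed by 6 corepressor genes, among them Nrip1 (0.83), and by 3 coactivator genes, among them Ncoa1 (0.79), and 7 and 5 had an unadjusted p under 0.05. In iSLC against IM3, 1 of 9 corepressor genes and 1 of 9 coactivator genes were DE and higher, where 10.3% of all genes were. The coactivator gene was the acetyltransferase gene Kat2b (1.17, adjusted p = 3.02e-14).

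Of 13 genes for other partners of RXR, 12 passed the filter on low counts and Nr1i2 did not. In IM3 against IM1, 1 was DE and higher, the vitamin D receptor gene Vdr (1.48, adjusted p = 5.08e-07), and 1 DE and lower, Nr4a1 (-1.02, adjusted p = 2.37e-08), where 2.62% and 3.72% of all genes were. Over IM2 to IM5 against IM1, 0 of the 12 were DE in either direction (edgeR; 10 had an unadjusted p under 0.05), where 3.8% of all genes were. Vdr was at 0.68 and Nr4a1 at -0.68, each past the adjusted p limit. The RA media of the same library set as IM1, IM2 and IM5, also held Activin A. Vdr was at a mean 0.787 TPM in IM2 and 0.413 in IM5, against 0.39 in IM1, and Nr4a1 at 9.02 and 10.02, against 11.9. In iSLC against IM3, 6 were DE and higher and 0 lower, where 10.3% and 8.92% of all genes were, among them the thyroid hormone receptor gene Thra (3.05, adjusted p = 3.06e-20), Vdr (2.63) and Ppard (1.97). Of 7 orphan receptor genes whose proteins bind direct repeats, Nr2f1 (COUP-TFI) was DE and higher in IM3 than in IM1 by 2.99 (adjusted p = 8.71e-15) and Nr2f2 (COUP-TFII) by 1.59 (adjusted p = 3.71e-17), and Nr2f6 was DE and lower, at -1.10 (adjusted p = 8.05e-10). Over IM2 to IM5 against IM1 only Nr2f1 of the 7 was DE (2.18), where 3.8% of all genes were. Nr2f2 was at 0.85 and Nr2f6 at -0.57. Nr2f6 was at a mean 43.8 TPM in IM2 and 50.4 in IM5, against 47.4 in IM1, and at 26.8 in IM3 and 31.6 in IM4. For these genes Activin A and the library set cannot be told apart among the RA media. Nr2f2 was at 9.84 to 11.5 TPM in IM5, which overlapped the 8.96 to 9.98 of IM1. In iSLC against IM3, Nr2f1 and Nr2f6 were higher, by 1.82 and 1.54, and Nr6a1 (-3.32) and Hnf4a (-4.42) lower.

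The promoter repeat was also set against the data. Of the 31 genes with a repeat spaced by 5 bases in their window, 11 passed the filter on low counts, and 4 of those were DE and higher in IM3 than in IM1 and 0 lower, where 2.62% and 3.72% of all genes were. They were Rarb, Cyp26a1 (1.36), the platelet chemokine gene Ppbp (6.70) and the embryonic globin gene Hbb-y (3.55). The last 2 are genes of blood cells, and red blood cell genes differed between these groups too, with Hba-a1 at a mean 14.2 TPM in IM3 and 1.97 in IM1, whose part in the count was not tested. Of the 39 tested genes with a repeat spaced by 1 base, 1 was DE and higher, and of the 15 with a spacing of 2, 0 were. Rarb and Cyp26a1 were known as RA target genes when the repeat was chosen, so these counts are a description.

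Among the 13476 genes with a mean normalized count of at least 100, the 3 whose log2 levels over the 27 libraries were most like each receptor gene were found by Pearson's r, which the 9 groups largely set. For Rarb they were Upk3b, a uroplakin gene of the mesothelium (r = 0.969), the ETS factor gene Elf4 and Zfp804a. Upk3b was at a mean 1.96 TPM in IM1, 215 in IM3, 175 in IM4, 56.0 in IM2 and 23.7 in IM5. For Rarg they were the amino acid transporter gene Slc7a5 (0.972), Prdx6 and Sp2. For Rara they were Rab3il1 (0.97), Oplah and Stat5a. For Rxra they were the disulfide isomerase gene P4hb (0.968), Mast4 and Wdr6, for Rxrb the coenzyme A synthase gene Coasy (0.981), Lrrc56 and Kmt5c, and for Rxrg Nop10 (0.968), Swsap1 and Tmem59l. Among the receptor genes, r between Rarb and Rarg was -0.849 and between Rara and Rarb 0.845 over the same libraries.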

How the data were processed

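Total RNA from 27 cultures, 3 for each of 9 groups, was sequenced as paired-end reads. Per the labels and the study's methods, the authors trimmed reads with cutadapt 1.9.1, aligned them to GRCm38 with STAR 2.5.2a and Ensembl transcripts, and estimated genes with RSEM 1.3.0. The deposited tables hold expected counts (estimated fragments per gene), TPM and FPKM values, and gene lengths in bases (the abundance-weighted mean over transcripts). Replicates were not pooled, and no strand setting is given in the sources used here.

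Groups were taken from the labels. Expected counts were rounded to whole numbers, genes of low count removed with filterByExpr (20839 of 48795 kept), scaled with TMM and fitted over all 27 libraries with edgeR 4.0.16 (glmQLFit and glmQLFTest) in R 4.3.3. DE required an adjusted p (Benjamini-Hochberg over all tested genes) of at most 0.01, at least a 2-fold difference, and 100 or more normalized counts on average over all libraries and in a compared group. Mean lengths were tested with limma 3.58.1. TPM as deposited served for levels, and FPKM as deposited only as an alternative unit. The GC offset removed from each library the trend of its counts over bins of exonic GC content. DESeq2 1.42.0 served as an alternative. Scripts were tested on simulated data. Totals give the depth, and p-values for genes of few counts rest on few fragments. Symbols were matched through GENCODE M21 (99.26% of identifiers). Promoter windows came from RefSeq (GRCm38.p6).

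The members and lists were chosen with earlier results of these data known. Named were all 6 members, up to 3 DE genes per direction and list with libraries apart in IM3 against IM1 and iSLC against IM3, the 3 most alike genes per member, and marker genes. Hbb-y, Ppbp, Top2b, Hba-a1, Nrip1 and Ncoa1 were named after their values were seen. Some listed genes that the rule would name are not reported here.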

Additional observations from a re-analysis of the deposited data

How the results depend on the processing

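The number of DE receptor genes kept its value, or stayed within 1.5 times of it, in every comparison under DESeq2 size factors, the offset for effective length, the DESeq2 Wald test, no filter on low counts, only the groups compared and the replicate block, and all 6 genes varied over the 9 groups under every alternative. With no fold minimum the numbers of the 6 genes called were 2 in M against EpiSC, 5 in IM1 against M, 6 in IM3 against M, 2 in IM3 against IM1, 3 in IM2 to IM5 against IM1, 3 in IM2 against IM3, 4 in IM5 against IM4 and 5 in iSLC against IM3. With no count minimum they were 2 in IM1 against M, IM3 against IM1 and IM2 to IM5 against IM1, and 1 in iSLC against IM3. Limma on log2(TPM + 1) called 1 in EpiSC against ESC, and on log2(TPM + 0.1) 1 in IM5 against IM4. The GC offset, with or without the replicate block, called 2 in IM1 against M.

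Leaving out single libraries gave 1 to 2 DE genes in IM3 against IM1 (2 without the third IM1 library) and 0 to 1 in IM5 against IM4 (1 without the third IM5 library). The length change of Rxrg ran from -17.2% to -10.8% over the libraries left out. The log2 fold change of Rara in IM2 against IM3 then ran from -0.027 to 0.0855 and that of Rxrb in M against EpiSC from -0.0357 to 0.0805. Rara was negative without IM2 library 2, IM2 library 3 or IM3 library 3, and Rxrb without M library 2.

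The GC offset turned the sign of several small log2 fold changes, with the replicate block value second: Rxrb in IM3 against IM1 (0.1436 and 0.1436), Rara in IM2 against IM3 (-0.2344 and -0.2342), Rxrb in IM2 against IM3 (-0.1513 and -0.1516), Rara in IM5 against IM4 (-0.208 and -0.2084), Rxrb in IM5 against IM4 (-0.1557 and -0.1552), Rara in iSLC against IM3 (-0.0783 and -0.0783) and Rarg in iSLC against IM3 (-0.0554 and -0.0553). Rara in IM2 against IM3 was also negative with limma on TPM (-0.0148 and -0.0151), and Rxra in M against EpiSC with the length offset (-0.0342). IM2 and IM5 in place of IM3, an alternative chosen after seeing the data, gave Rxra -0.2628 against IM1, but both media also held Activin A. The cause was not tested.

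Replicate numbers did not pair the libraries: deviations of same-numbered libraries correlated at 0.019 on average (from -0.221 to 0.233), and the block left the DE count at 1 in IM3 against IM1, with Rarb the gene in both.

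In IM3 the share of Rarb in the RAR sum was 38.46% from counts without length, the RAR sum 121.3 TPM after TMM scaling and the RAR to RXR ratio 1.935 from counts without length. Depth limits Rarb before RA and Rxrg after EpiSC most, at few counts per library.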
